A study of Rattus norvegicus with 12 samples.

Results

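ATP-binding cassette (ABC) transporters are membrane proteins that spend ATP to move molecules across membranes, and a few relatives of the family do not transport at all but work on the ribosome. Some pump drugs, dyes and conjugated toxins out of the cell, some load cholesterol and phospholipids onto lipoproteins or carry fatty acids into peroxisomes, and others serve mitochondria, lysosomes or potassium channels. In stem cell work the family is known for dye efflux: the side population assay, which the study ran on these cells, reads the export of Hoechst dye by ABCG2 and related pumps. The transporters were chosen by name alone, as the probe sets whose single annotated gene symbol began with Abc, a letter from a to g and a number. That gave 50 of the 31042 probe sets tested, or 37 of 14217 genes, and no filter on low values was applied to them.

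RNA of the rat fibroblast line F111 (Fischer strain) was compared between 2 groups. A16 cells had been kept in adhesion for 16 h and were the control. Colony cells came from F111 cells held 16 h in suspension, then plated in soft agar and collected from the colonies after 7 days, and per the methods they were allowed to attach to a dish for a short time before use. Both groups come from 1 cell line with no genetic change introduced by design. They are not alike in karyotype, however. The study reported a chromosome translocation in a minority of the adherent control cells and in up to all of the colony cells. It also reported that further chromosome abnormalities were more frequent in colony cells. The part of gene copy number in the fold changes below was not tested. Each group had 3 Affymetrix arrays, and array values are given below in the order of biological replicate 1, the array labelled technical replicate 2, then biological replicate 2. The labels do not say which biological replicate the technical array repeats. It was averaged with biological replicate 1 as an assumption, so n = 2 cultures per group. Nothing says that the cultures were grown independently, and p-values measure the spread between these samples only. The arrays of 1 group differed by an SD of 0.17 to 0.33 in log2 RMA over all probe sets, and arrays of different groups by 0.67 to 0.76. The labels of the Colony array of biological replicate 2 disagree, since 1 field names tumour formation and the others a colony; it was kept as Colony, and results without it are given where a call differs. RMA is the linear probe set intensity, and differences are log2 fold changes (Colony minus A16) with the standard error (SE) of limma and its p adjusted over all probe sets. A gene was called higher or lower at an adjusted p under 0.05 together with a fold change over 2, and was represented by its brightest probe set.

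The fibroblast label was checked against marker genes. Summed RMA of 11 fibroblast markers was 73020 to 83763 in A16 and 56137 to 60766 in Colony cells. Thy1, Col1a1 and Col3a1 were called lower, 0 higher and 8 not. Of those not called, Pdgfra was higher (log2 fold change 0.55, limma adjusted p 0.0232). Lum (-0.78, adjusted p 0.00663) and Col1a2 (-0.61, adjusted p 0.0142) were lower. Vim and S100a4 lay above on every Colony array, by 0.16 each. Col1a1 read 14535 to 22396 in A16 and 2071 to 4294 in Colony, and Col1a2 15489 to 16206 and 9935 to 11225. Over 8 macrophage and leukocyte markers the sum was 1235 to 1422 in A16 and 1629 to 1720 in Colony; Csf1r was called higher, and 5 of the 8 lay below the median of the arrays. The 4 epithelial markers summed to 753 to 877 and 2992 to 3766, with Krt8 called higher and the other 3 below the median of the arrays. Krt8 alone read 669 to 794 in A16 and 2891 to 3668 in Colony. Csf1r read 34.4 to 44.9 and 538 to 824, while Cd14 was lower in Colony (log2 fold change -0.56, limma adjusted p 0.0366). The 3 endothelial markers summed to 106 to 115 and 112 to 132 with none called. The fibroblast, leukocyte and epithelial sums thus differed between the groups in every comparison below. The leukocyte and epithelial differences came largely from Csf1r and Krt8, 1 gene each, and the fibroblast difference largely from Col1a1 and Col1a2. The part of these differences in the transporter results was not tested. In RNA from whole cultures, a change in the share of cells that make a transcript and a change in its amount per cell cannot be told apart.

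The promoters of 4 of the called genes are shown: Abca1 and Abca5, which were higher in Colony cells, and Abcc1 and Abcd4, which were lower. Those of Abcc9 and Abcg3l1, also called lower, are not printed. Each line gives the 250 bases before the annotated start, 5′ to 3′ on the coding strand, from RefSeq (GRCr8). Capitals mark 3 of the motifs searched, the E-box CACGTG, the GC box GGGCGG and the TATA box TATAAA, on either strand (CCGCCC is the GC box on the other strand). The intervals are chr5:72596474-72596723 for Abca1, chr10:95808425-95808674 for Abca5, chr10:1162368-1162617 for Abcc1 and chr6:109991984-109992233 for Abcd4, all on the minus strand.
Abca1: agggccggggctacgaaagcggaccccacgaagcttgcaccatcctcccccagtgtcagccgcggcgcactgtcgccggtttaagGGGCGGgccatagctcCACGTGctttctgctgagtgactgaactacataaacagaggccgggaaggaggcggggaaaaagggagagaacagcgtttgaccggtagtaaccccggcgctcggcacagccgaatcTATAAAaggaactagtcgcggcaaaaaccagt
Abca5: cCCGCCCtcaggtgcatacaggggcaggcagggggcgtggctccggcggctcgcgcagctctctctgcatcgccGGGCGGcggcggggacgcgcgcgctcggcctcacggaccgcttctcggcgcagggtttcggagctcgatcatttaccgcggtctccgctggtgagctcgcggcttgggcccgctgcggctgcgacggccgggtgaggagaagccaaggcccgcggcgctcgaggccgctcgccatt
Abcc1: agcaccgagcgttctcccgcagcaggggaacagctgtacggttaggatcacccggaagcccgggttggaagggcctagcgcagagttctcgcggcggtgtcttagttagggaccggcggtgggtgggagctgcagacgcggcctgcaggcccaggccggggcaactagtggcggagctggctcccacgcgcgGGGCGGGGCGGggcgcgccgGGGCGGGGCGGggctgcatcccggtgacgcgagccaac
Abcd4: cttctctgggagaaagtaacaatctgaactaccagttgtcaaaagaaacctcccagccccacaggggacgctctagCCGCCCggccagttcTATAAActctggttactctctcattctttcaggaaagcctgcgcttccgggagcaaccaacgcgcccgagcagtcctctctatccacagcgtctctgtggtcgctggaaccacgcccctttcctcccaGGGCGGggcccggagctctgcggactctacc

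A promoter of 300 bases (250 before and 50 after the start) was held for 30 of the 37 ABC genes. All 4 shown carry a GC box. In Abcc1 there were 2 overlapping pairs before the start, with neighbouring matches that share 1 G. Abca1 also carries an E-box 149 bases and a TATA box 32 bases before its start, and Abcd4 a TATA box 159 bases before. The GC box was found in 21 of the 30 ABC promoters (70%) and in 34.9% of 27457 rat promoters of the same length. The E-box was found in 2 of 30 (6.67%, Abca1 and Abcb6) against 6.65%, and the TATA box in 4 of 30 (13.3%) against 14.3%. TGACNNNGC, the core of the antioxidant element, was in 5 of 30 (16.7%, Abca5 among them, after its start) against 12.2%. AGGTCA, a binding motif of nuclear receptors, was in 5 of 30 (16.7%) against 15.7%, and the AP-1 site TGANTCA in 1 of 30 (3.33%) against 7.33%. ABC promoters held a median of 23 CG pairs and all promoters a median of 7. The 27457 promoters were not limited to genes measured on the array, and no difference from them was tested. A match of letters is a description of the window and says nothing of which factor is bound.

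Most ABC transporters did not change past the threshold between A16 and Colony cells. Of the 37 genes, 2 were called higher in Colony cells (Abca1 and Abca5), 4 lower (Abcc1, Abcg3l1, Abcc9 and Abcd4) and 31 not. That is 5.41% higher and 10.8% lower, beside 4.36% and 4.75% of all genes, and the difference from all genes was not tested. At the adjusted p alone 5 genes were higher and 6 lower, beside 12.9% and 10.8% of all genes. By probe set, 4 of 50 were called higher, with a background of 4.0%, and 4 lower, with a background of 5.81%. At the adjusted p alone 8 probe sets were higher and 8 lower, beside 11.4% and 11.3% of all probe sets. In 13 of the 50 every Colony array lay above every A16 array, and in 16 every one lay below, beside 25.4% and 20.5% of all probe sets, while the arrays of 21 overlapped. The median log2 fold change of the 37 genes was 0.03, and that of all genes was 0.05. The median size of the change, whatever its sign, was 0.22 for ABC genes and 0.24 for all genes. Without biological replicate 1 of A16, more ABC probe sets were called lower, and so were more of all probe sets. Without the Colony array whose labels disagree, 3 genes were called higher, with Abca8 added, and 5 lower, with Abcg2 added. The methods' t-test, run here on the same 2 averaged cultures per group, called 6 ABC probe sets before any adjustment of p. With Benjamini-Hochberg it called 0 of all 31042 probe sets. With only 2 residual degrees of freedom it could hardly call any, so nothing is read from that 0. The study names neither this averaging nor Benjamini-Hochberg.

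**Figure D1:**
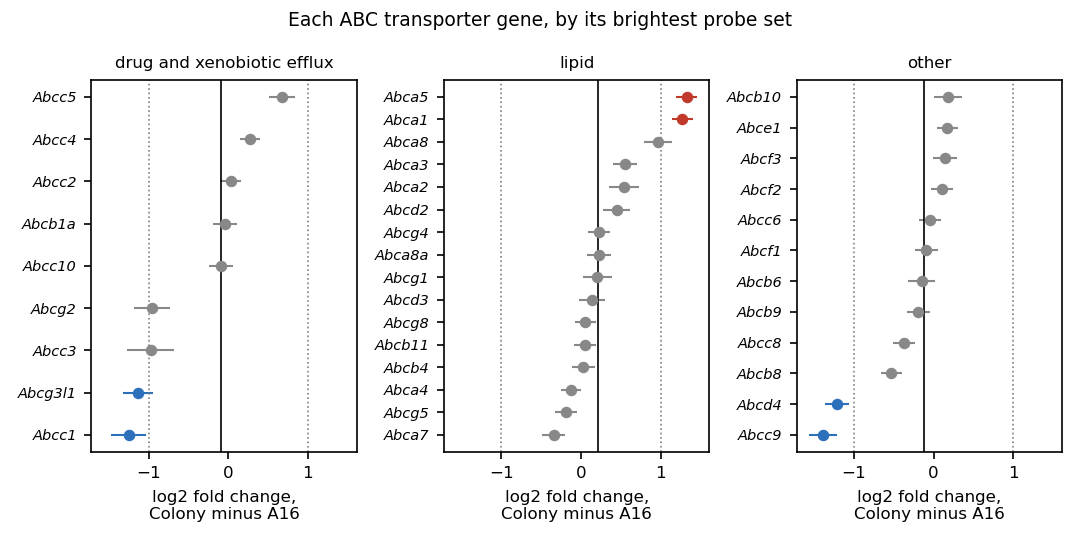
Log2 fold change (Colony minus A16, horizontal axis) of each of the 37 ABC genes by its brightest probe set, in 3 role groups. Points are estimates and bars 1 SE, red marks genes called higher, blue genes called lower and grey genes not called; dotted lines mark a fold change of 2 and the solid line the median of the group. The 2 genes called higher are in the lipid group, and the 4 called lower are 2 of the efflux group and 2 of the group of others.

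By role the few calls, 2 in each role, fell on different sides. Of 9 drug and xenobiotic efflux genes 2 were lower and none higher, with a median log2 fold change of -0.09. Of 16 lipid transporter genes 2 were higher and none lower, with a median of 0.21. The other 12 genes held 2 lower and none higher, with a median of -0.12. That is 22.2% of efflux genes and 16.7% of the others lower, and 12.5% of lipid genes higher. Among all genes 4.36% were called higher and 4.75% lower, and each share by role rests on 2 genes. At an unadjusted limma p under 0.05, whatever the fold, 1 efflux gene was higher and 4 lower, 6 lipid genes were higher and 0 lower, and 0 of the others were higher and 4 lower. At that cut 19.4% of all genes were higher and 15.9% lower. The differences between roles were not tested. With PLIER, the second summary the authors deposited, the medians of the efflux and the other genes turned to 0.06 and 0.03, so no direction is read from either.

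Abca1 and Abca5 led the lipid transporters. Abca1 exports cholesterol and phospholipid to apolipoprotein A1. Its brightest probe set read 127, 130 and 132 in A16 cells and 314, 352 and 298 in Colony cells. Every Colony array was above every A16 array, by a FC value of 2.42 (log2 fold change 1.28, SE 0.13, 95% interval 0.96 to 1.59, adjusted p 0.000991). Abca1 has 3 further probe sets on the array. One read 35.4, 35.4 and 40.4 in A16 and 94.3, 133 and 73.2 in Colony cells, a log2 fold change of 1.26. Another read 27.2, 29.9 and 35.9 against 84.2, 83.3 and 85.3, a change of 1.40. The dimmest read 18.7, 19.5 and 20.9 against 28.5, 35.4 and 38.2, which gave 0.80 and an adjusted p of 0.00978 but lay under the fold threshold. All 4 probe sets of Abca1 were thus higher on every Colony array, and 3 of them were called.

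Abca5, a lysosomal member of the same subfamily that has been linked to cholesterol handling, has 1 probe set. It read 71.4, 66.2 and 64.1 in A16 and 168, 182 and 159 in Colony cells. The groups did not overlap, and the FC value was 2.51 (log2 fold change 1.33, SE 0.13, 95% interval 1.01 to 1.65, adjusted p 0.000862). Leaving out the Colony array whose labels disagree gave 1.35 for the brightest probe set of Abca1 and 1.40 for Abca5, and both stayed called. In the rat genome Abca5 lies beside Abca6 in a cluster of related genes that also holds Abca8 and Abca8a. Abca8 read 37.1, 35.4 and 29.8 in A16 and 71.5, 73.8 and 57.2 in Colony cells. Its log2 fold change of 0.97 (SE 0.17, adjusted p 0.00844) was just under the fold threshold. Without the Colony array whose labels disagree it was 1.14 (adjusted p 0.0107) and called, and with PLIER, as log2(value + 16), it was 0.50 (adjusted p 0.132). A dimmer Abca8 probe set read 15.7 to 18.1 in A16 and 16.0 to 20.6 in Colony cells, a difference of 0.09, and Abca8a differed by 0.22 (adjusted p 0.362).

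**Figure D2:**
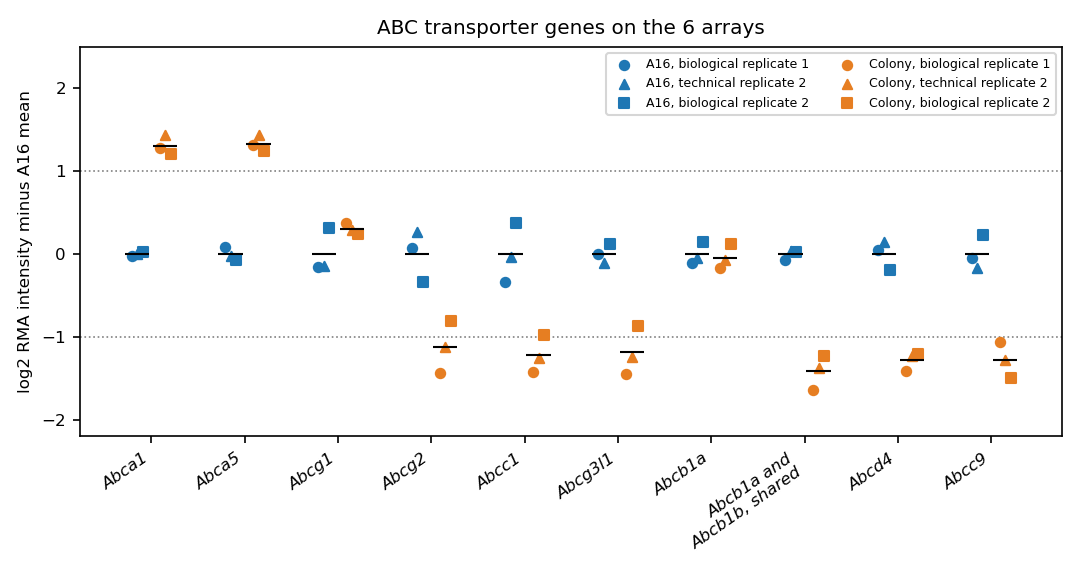
Log2 RMA intensity of every array relative to the A16 mean (vertical axis), for 9 ABC genes by their brightest probe set and for the probe set shared by Abcb1a and Abcb1b (horizontal axis). Blue is A16, orange Colony, the symbol names the replicate, short bars are means of 3 arrays and dotted lines a difference of 1; the Colony arrays of Abca1 and Abca5 sit above all A16 arrays, those of Abcg2, Abcc1, Abcg3l1, Abcd4, Abcc9 and the shared probe set sit below, and those of Abcg1 and Abcb1a overlap.

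The other lipid transporters showed smaller differences. Abcg1, which exports cholesterol to high-density lipoprotein, read 340, 343 and 471 in A16 and 493, 463 and 448 in Colony cells by its brightest probe set. These arrays overlapped, and the log2 fold change was 0.21 (SE 0.18, adjusted p 0.492). A second Abcg1 probe set read 94.2, 88.8 and 129 against 68.6, 54.2 and 70.1 and gave -0.73 (adjusted p 0.0352), and the dimmest gave 0.06, so the probe sets of Abcg1 disagreed. Abca7, a phospholipid transporter related to Abca1, read 691, 825 and 924 in A16 and 628, 647 and 679 in Colony cells. All its Colony arrays were below the A16 arrays, with a log2 fold change of -0.34 (SE 0.15, adjusted p 0.161). Abca3, known from surfactant lipid packing in the lung, read 382, 442 and 355 against 620, 586 and 521. Its difference of 0.55 (SE 0.15) had an adjusted p of 0.0390 and a FC value of 1.47, and its second probe set differed by 0.10.

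Abca2, a transporter of late endosomes and lysosomes, was where the summaries parted. Its RMA values were 311, 306 and 245 in A16 and 462, 461 and 348 in Colony cells, a log2 fold change of 0.54 (adjusted p 0.0893). With PLIER it was 1.44 (adjusted p 0.00163), which would be called. The peroxisomal fatty acid importers differed little: Abcd3 by 0.14 (adjusted p 0.608), with overlapping arrays, and Abcd2, which was dim, by 0.45 (adjusted p 0.112). Abca4, the retinoid transporter of photoreceptors, differed by -0.12. The canalicular transporters of bile, Abcb4 and Abcb11, differed by 0.03 and 0.05, and Abcb11 read only 17.6 to 24.9 over the 6 arrays. The sterol pumps Abcg5 and Abcg8 differed by -0.19 and 0.06, and Abcg4, a relative of Abcg1, by 0.23. With RMA none of these had an adjusted p under 0.05.

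The genes of the efflux group called lower were Abcc1 and Abcg3l1. Abcc1 (MRP1) exports glutathione conjugates and many drugs. Its values were 440, 540 and 716 in A16 and 207, 232 and 282 in Colony cells, so the groups did not overlap although A16 varied widely. Abcc1 was 2.38-fold lower in Colony cells (log2 fold change -1.25, SE 0.22, 95% interval -1.77 to -0.73, adjusted p 0.00785). Without biological replicate 2 of A16, the highest array, the change was -0.97 and under the fold threshold. Abcg3l1 belongs to a rodent branch of relatives of Abcg2, and it is placed with the efflux genes for that relation since its own substrate is uncertain. It read 145, 134 and 157 in A16 and 53.1, 61.3 and 79.4 in Colony cells. The fold was 2.20 lower (log2 fold change -1.14, SE 0.19, 95% interval -1.58 to -0.69, adjusted p 0.00602). Without biological replicate 1 of Colony and the technical array averaged with it, the change was -0.90, under the fold threshold. A probe set annotated to both Abcg3l2 and Abcg3l4, 2 relatives, is no member by the rule and differed by -0.20 (adjusted p 0.380).

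Abcg2, the dye and drug pump that the side population assay reads, was lower on every Colony array. It read 268, 305 and 200 in A16 and 93.6, 117 and 145 in Colony cells. The log2 fold change was -0.96 (SE 0.23, 95% interval -1.50 to -0.41, adjusted p 0.0248), a 1.94-fold difference that passed the p but not the fold threshold. With the 6 arrays as separate samples it was -1.12 and called, as it was at -1.19 without the Colony array whose labels disagree. Without biological replicate 1 of A16 it was -0.70 (adjusted p 0.0578) and without that of Colony -0.72 (adjusted p 0.0977), both past neither threshold. Prom1 (CD133), a stem cell marker that the study stained beside ABCG2, differed by 0.04 (adjusted p 0.896). The study itself reported more ABCG2 and CD133 protein in colony cells than in A16 cells, and a larger side population. Its ABCG2 protein result thus goes the other way from the Abcg2 RNA. The values given here are RNA levels, and protein or pump activity is not measured by the arrays.

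Abcb1a and Abcb1b encode the rodent P-glycoproteins, which pump hydrophobic drugs out of the cell and lie side by side in the genome next to Abcb4. The brightest Abcb1a probe set read 137, 143 and 164 in A16 and 131, 140 and 160 in Colony cells. These overlapped, with a log2 fold change of -0.04 (SE 0.15, 95% interval -0.41 to 0.33, adjusted p 0.895). The other Abcb1a probe set read 96.3, 138 and 119 against 132, 119 and 126 and differed by 0.10 (95% interval -0.20 to 0.40). A further probe set is annotated to both Abcb1a and Abcb1b and so is no member by the rule. It read 1389, 1497 and 1484 in A16 and 466, 560 and 622 in Colony cells, which do not overlap. Its log2 fold change was -1.38 (SE 0.15, 95% interval -1.73 to -1.02, adjusted p 0.00113), 2.60-fold lower, and it was -1.39 with PLIER. The annotation does not say how much of that signal belongs to each gene, and no probe set was annotated to Abcb1b alone.

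**Figure D3:**
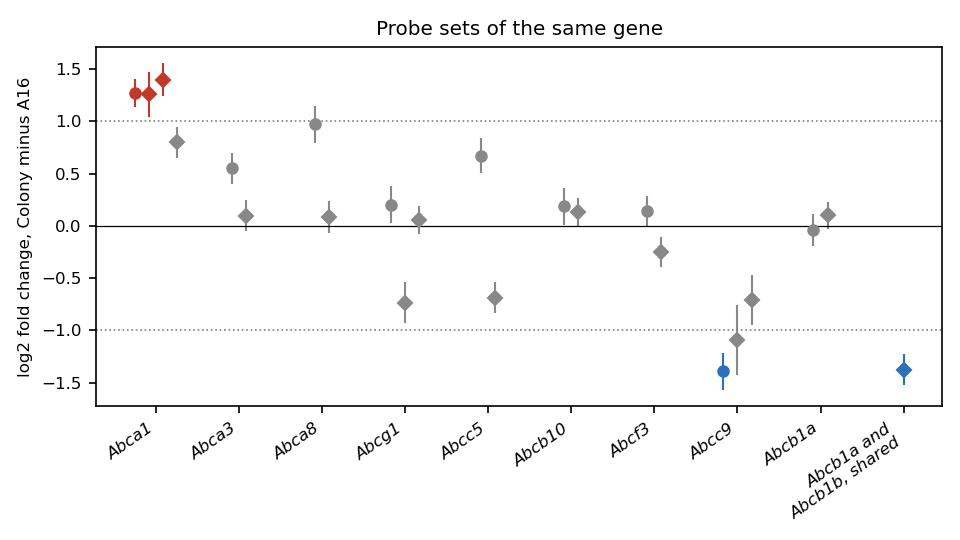
Log2 fold change (Colony minus A16, vertical axis) of every probe set of the 9 ABC genes with more than 1, and of the probe set shared by Abcb1a and Abcb1b (horizontal axis). Circles are the brightest probe set of a gene and diamonds the others, bars are 1 SE, and colours are red for called higher, blue for called lower and grey for not called; the 4 probe sets of Abca1 lie from 0.80 to 1.40, those of Abcc9 from -1.39 to -0.71, and the 2 of Abcc5 lie on opposite sides at 0.67 and -0.69.

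Among the other multidrug resistance proteins, Abcc5, an exporter of cyclic nucleotides and organic anions, had probe sets that pointed in opposite directions. The brighter read 293, 363 and 267 in A16 and 378, 485 and 518 in Colony cells, a log2 fold change of 0.67 (SE 0.17, adjusted p 0.0277). The dimmer read 163, 146 and 140 against 115, 86.1 and 83.3, a change of -0.69 (SE 0.15, adjusted p 0.0175). Neither reached a fold of 2, and no direction is given for the gene. Abcc4, which exports cyclic nucleotides and prostaglandins, read 279, 351 and 335 against 382, 388 and 398. Its Colony arrays were all above those of A16, by 0.27 (SE 0.13, adjusted p 0.194). Abcc3, an exporter of glucuronides and bile acids, read 207, 183 and 287 against 159, 161 and 90.7. The change of -0.97 (SE 0.30) had an adjusted p of 0.0585, and it was -0.57 without the Colony array whose labels disagree, which was the lowest. Abcc10 and Abcc2 differed by -0.09 and 0.03, and Abcc2 read 24.5 to 31.1 over the 6 arrays.

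The remaining calls were Abcc9 and Abcd4. Abcc9 is the sulfonylurea receptor SUR2, a regulatory subunit of potassium channels that close on ATP. The brightest of its 3 probe sets read 359, 330 and 435 in A16 and 178, 153 and 132 in Colony cells. It was 2.62-fold lower (log2 fold change -1.39, SE 0.18, 95% interval -1.81 to -0.97, adjusted p 0.00227). A second read 79.3, 86.6 and 183 against 53.0, 64.8 and 57.1, which gave -1.09 with an SE of 0.34 and an adjusted p of 0.0603. The third gave -0.71 (adjusted p 0.0796), and 0.14 with PLIER. On all 3 the Colony arrays were below the A16 arrays. Kcnj8, the pore subunit that pairs with SUR2 and the neighbour of Abcc9 in the genome, was also below on every Colony array, with a log2 fold change of -0.49 (SE 0.19, adjusted p 0.118). Abcc8, the related receptor SUR1, differed by -0.37 (adjusted p 0.115) and its partner Kcnj11 by 0.20 (adjusted p 0.420).

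Abcd4 works at the lysosome in the release of vitamin B12 to the cytosol. Its values were 682, 734 and 580 in A16 and 250, 282 and 288 in Colony cells. The groups stood well apart, with a 2.32-fold lower level in Colony cells (log2 fold change -1.21, SE 0.15, 95% interval -1.57 to -0.85, adjusted p 0.00202). Without the Colony array whose labels disagree, Abcd4 was at -1.27 and Abcc9 at -1.23, and both stayed called.

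The ABC proteins that do not transport held close to their A16 values. Abce1, which splits ribosomes for recycling, read 2144, 2516 and 2143 in A16 and 2475, 2470 and 2562 in Colony cells. The arrays overlapped, with a log2 fold change of 0.17 (SE 0.13, 95% interval -0.14 to 0.48). Abcf1, a factor in translation initiation, read 1914, 1967 and 1606 against 1709, 1625 and 1641, a difference of -0.09 (95% interval -0.44 to 0.25). Abcf2 and Abcf3 differed by 0.11 and 0.14 by their brightest probe sets, with arrays that overlapped, and the second Abcf3 probe set by -0.25. The intervals of Abce1 and Abcf1 leave out a fold of 2 in either direction.

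Of the mitochondrial members, Abcb8 read 356, 398 and 403 in A16 and 290, 265 and 262 in Colony cells. All Colony arrays were lower, by -0.53 (SE 0.13, adjusted p 0.0275), a 1.44-fold difference under the fold threshold. Abcb10, which takes part in heme synthesis, differed by 0.19 and 0.13 in its probe sets, and Abcb6, tied to porphyrin transport, by -0.15 (adjusted p 0.604). Abcb9, a lysosomal peptide transporter, differed by -0.19, and Abcc6, whose loss is known from ectopic mineralisation, by -0.05. Apart from Abcb8 none had an adjusted p under 0.05.

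The choice of summary left the calls of the 6 called genes in place. The plot of RMA against PLIER changes shows that the probe sets called with RMA lay near the diagonal, while Abca2, Abcc8 and the dimmest probe set of Abcc9 lay far from it. That Abcc9 probe set turned from -0.71 with RMA to 0.14 with PLIER. Abcc8 was at -0.37 with RMA and -1.11 with PLIER (adjusted p 0.0893).

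**Figure D4:**
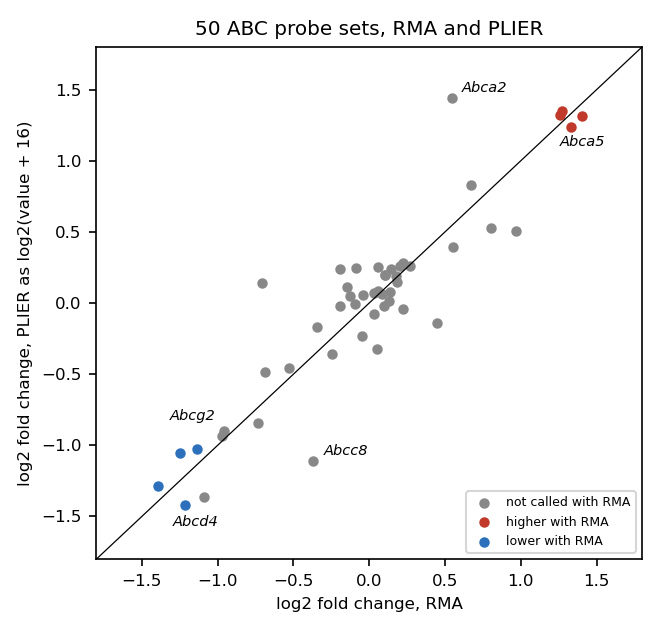
Log2 fold change of the 50 ABC probe sets with RMA (horizontal axis) and with PLIER as log2(value + 16) (vertical axis); the line marks equal values. Colours give the RMA call, red for higher, blue for lower and grey for not called; Abca2 lies at 0.54 and 1.44, Abcc8 at -0.37 and -1.11 and the dimmest Abcc9 probe set at -0.71 and 0.14.

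Genes related to these transporters were read from 8 lists. Most hold genes that work with them, but Tap1, Tap2 and Cftr are ABC proteins themselves and Prom1 is a marker. Of 63 listed genes 57 were measured, and 6 were called higher (10.5%), 0 lower and 51 not, beside 4.36% and 4.75% of all genes. Their median log2 fold change was 0.12, and that of all genes 0.05. At the limma adjusted p alone 14 of the 57 were higher and 4 lower, beside 12.9% and 10.8% of all genes. At an unadjusted p under 0.05 17 were higher and 8 lower, beside 19.4% and 15.9%. The 6 were the conjugation and redox enzymes Gsta1 (3.22), Nqo1 (1.79) and Gstm1 (1.27), the peroxisomal enzyme Cat, which breaks down hydrogen peroxide (1.70), Alas1, the first enzyme of heme synthesis (1.36), and Slc25a28, a mitochondrial iron carrier (1.14), each value a log2 fold change with an adjusted p of 0.000121 to 0.00222. Gsta1 and Gstm1 attach glutathione to compounds, and Abcc1 exports such conjugates. The probe sets of Keap1, the sensor that holds back Nfe2l2, disagreed: the brightest was at 0.40 (adjusted p 0.187), above on every Colony array, and a dimmer one was called lower at -1.86.

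None of the 14 measured sterol and lipoprotein genes was called by its brightest probe set, with a median of 0.09. Mylip, which degrades the LDL receptor, stood at 1.00 (SE 0.13, adjusted p 0.00258), just under the fold threshold. Without the Colony array whose labels disagree Mylip was at 1.01, past the fold threshold. Lpcat3 was at 0.82 by its brightest probe set and called at 1.11 by a dimmer one, and Npc2 was at 0.79 (adjusted p 0.00594). The sterol sensor Nr1h2 was at -0.58 (adjusted p 0.0617). The 10 others lay between -0.41 (Rxra) and 0.53 (Pltp), among them Scarb1 at -0.34, Srebf1 at -0.17 and Apoe at 0.11, none with an adjusted p under 0.05. The superfamily members named otherwise were not called: Tap2, a subunit of the peptide transporter of antigen presentation, was at -0.70 (adjusted p 0.00938), Tap1 at -0.26 and Cftr at -0.05. None of the 6 translation partners was called either.

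**Figure D5:**
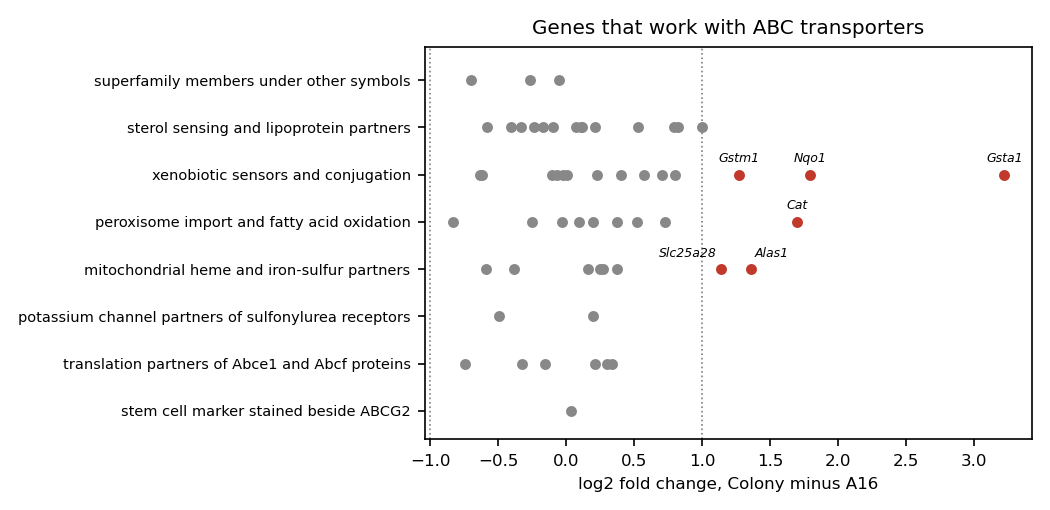
Log2 fold change (Colony minus A16, horizontal axis) of the brightest probe set of 57 genes related to ABC transporters, in 8 lists. Tap1, Tap2 and Cftr are ABC proteins themselves, and Prom1 is a marker stained beside ABCG2. Red marks the 6 genes called higher, which are named, grey those not called, and dotted lines a fold change of 2; none is called lower.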

How the data were processed

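RNA of A16 and Colony cells was hybridised to 6 Affymetrix arrays. Per the methods, the authors summarised each probe set with RMA and PLIER, and they deposited both as linear intensity. The version of either method is not given in the sources used here. The deposited RMA values spanned 11.6 to 25775, with array medians of 97.6 to 101, and precision is limited by how many cultures there are. Log2 of RMA was taken with nothing added. Of 31099 probe sets 57 controls were left out. Of the rest, 20826 had 1 gene symbol, 436 several and 9780 none in the array annotation. For 20758 the gene identifier was found in RefSeq (GRCr8) and its symbol there was used, whether or not it differed. ABC members were chosen by the symbol of the array annotation. All 31042 were fitted in R 4.3.3 by limma 3.58.1 (functions lmFit and eBayes, 4.76 prior degrees of freedom), 2 cultures per group, and adjusted with Benjamini-Hochberg. Promoters were searched with Python 3.11.15. The fit was tested on simulated data.

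Values are given on every array for each gene with a called probe set, for Abcg2 and Abcb1a, and for the 2 brightest uncalled genes of each role; further genes were added where their probe sets or summaries disagree. Abcb1b has no probe set of its own. Related genes are named where called, and others were chosen after their values were seen. Members, roles, lists and tests were chosen with earlier results of these data known.

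Alternatives were PLIER, on a log2 scale with 16 added or with nothing added, other uses of the technical arrays, the replicate block, leaving out each culture, leaving out dim probe sets (below percentile 25), scaling on probe sets above percentile 75, no fold threshold, an intensity trend, the mean over probe sets of a gene and the methods' t-test. No scan date or slide was given. Tumour and NA16 cells were not analysed here.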

Additional observations from a re-analysis of the deposited data

How the results depend on the processing

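With 2 cultures per group, small differences could not be resolved, and a fit without 1 culture takes its spread from the other group alone. Of the counts recomputed, 214 moved by at most 1.5 times and 18 by more. Without the fold threshold, ABC probe sets called higher and lower were 8 and 8, ABC genes higher 5 (efflux 1, lipid 4), and related genes higher and lower 14 and 4. The methods' t-test with Benjamini-Hochberg called 0 of all probe sets, so 0 in each ABC and related count. Unadjusted, it called 1070 probe sets higher and 1313 lower, 6 ABC probe sets among them, with 1 efflux gene lower. Of the fits without 1 culture, that without A16 biological replicate 1 called the most probe sets lower, among ABC probe sets and among all. PLIER as log2(value) called 2 related genes lower.

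Of fold changes of named genes, 330 kept direction and side of the threshold, 9 newly passed, 16 no longer passed and 7 turned sign. Abcb1a turned to 0.0595 and 0.0667 with PLIER and 0.0301 as the mean of its probe sets, and ran from -0.162 to 0.0804 without 1 culture (0.0722 without A16 replicate 2 and 0.0804 without Colony replicate 1). Abcc5 was -0.0071 as the mean of its probe sets, and Abcf1 ran from -0.231 to 0.0425, positive without A16 replicate 1. Abcg2 ran from -1.22 to -0.70 over 17 alternatives and was called in 7, 1 of them only because it has no fold threshold. It was -0.70 without A16 replicate 1 and -0.72 without Colony replicate 1. The cause was not tested. Median efflux changes were 0.06 and 0.07 and other medians 0.03 and 0.04 with PLIER.

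The replicate numbers gave only 2 pairs, and same-numbered cultures did not deviate together (correlation -0.15), so they are not taken as pairs. With the replicate block 4 ABC probe sets were higher and 5 lower, beside 1254 and 1867 of all 31042 probe sets. With the crossed block, chosen after seeing the data, they were also 4 and 5, beside 1256 and 1879.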
